A study of Mus musculus with 4 samples.

Results

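The genes described here are 7 noncoding RNA genes whose transcripts are known to be abundant in the nucleus or to carry small nucleolar RNAs (snoRNAs) in their introns: Malat1, Neat1, Gas5, Snhg1, Snhg12, Meg3 and Kcnq1ot1. They were chosen by name, and all 7 were found among 55450 genes of the GENCODE M21 basic annotation, of which 10155 are long noncoding RNA (lncRNA) genes. For each gene, RNA polymerase II (Pol II) peaks were collected within 1500 bp of any annotated transcription start site (TSS), called the promoter window, and along the gene body. There were 4 libraries, 2 from old WT Cre and 2 from young EC-K4KO mice, of Pol II ChIP-seq from flow-sorted mouse brain endothelial cells (ECs). Libraries carry the replicate number of their labels, and values given in series follow the order old WT Cre 1, old WT Cre 2, young EC-K4KO 1, young EC-K4KO 2. Old WT Cre mice were 20 to 23 mo old and carried CDH5-CreERT2, a tamoxifen-inducible Cre driven by the endothelial Cdh5 promoter. Young EC-K4KO mice were 4 to 6 mo old and carried CDH5-CreERT2 together with Klf4-flox alleles, a cross made to remove Klf4 in ECs. Cre was induced with tamoxifen at 8 wk of age. Age and genotype changed together and cannot be told apart. The study calls the libraries of a group biological replicates, but how many mice went into each is not given in the sources used here.

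MALAT1 is a long nuclear RNA of nuclear speckles, and NEAT1 is the RNA scaffold around which paraspeckles assemble. Gas5, Snhg1 and Snhg12 are host genes: their spliced exons code for no known protein, while their introns are processed into snoRNAs that guide modification of ribosomal RNA. Meg3 is a maternally expressed imprinted RNA, and Kcnq1ot1 is a paternally expressed RNA made antisense to Kcnq1 that silences neighbouring imprinted genes. All of these RNAs are made by Pol II, and a peak records where the immunoprecipitated DNA piled up above the local background, not how much RNA a cell holds.

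The regions in which peaks of several libraries overlapped at a gene start are shown because the comparison between libraries turns on them. Each is given on mm10, 5′ to 3′ on the gene's own strand, with the bases under the peak of every library that had a peak there in capitals. At Gas5 the region was the peak of old WT Cre 1 at chr1:161034349-161034605 (plus strand), and the 188 bases in capitals also lay under the peak of young EC-K4KO 2. At Snhg12 it was the joint span of a peak in old WT Cre 2 with a peak in young EC-K4KO 2, at chr4:132308671-132308914 (plus strand), with 135 shared bases. At Kcnq1ot1 it was the peak of old WT Cre 1 at chr7:143295589-143295851 (minus strand), with 27 bases shared by 3 libraries.
Gas5 start: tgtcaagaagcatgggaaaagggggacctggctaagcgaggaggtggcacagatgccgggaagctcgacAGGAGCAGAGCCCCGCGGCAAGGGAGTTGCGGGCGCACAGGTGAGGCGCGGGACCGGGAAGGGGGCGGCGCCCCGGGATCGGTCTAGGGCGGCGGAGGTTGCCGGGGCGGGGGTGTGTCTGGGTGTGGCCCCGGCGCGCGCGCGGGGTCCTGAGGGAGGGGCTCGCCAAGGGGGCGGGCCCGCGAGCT
Snhg12 start: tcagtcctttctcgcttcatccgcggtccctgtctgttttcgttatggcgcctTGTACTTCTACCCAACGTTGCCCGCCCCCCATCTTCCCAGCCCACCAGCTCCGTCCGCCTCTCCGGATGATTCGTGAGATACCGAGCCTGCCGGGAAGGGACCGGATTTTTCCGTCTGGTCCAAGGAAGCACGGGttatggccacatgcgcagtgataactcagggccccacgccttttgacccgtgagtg
Kcnq1ot1 start: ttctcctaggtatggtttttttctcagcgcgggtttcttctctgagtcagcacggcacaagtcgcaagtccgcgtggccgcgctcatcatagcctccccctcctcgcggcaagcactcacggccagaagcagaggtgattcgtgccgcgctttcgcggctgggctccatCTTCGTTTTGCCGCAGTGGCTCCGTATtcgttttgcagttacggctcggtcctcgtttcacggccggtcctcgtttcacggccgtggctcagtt
The GC content was 73.9% in the Gas5 region, 59.4% in the Snhg12 region and 59.7% in the Kcnq1ot1 region, and they held 28, 19 and 28 CpG dinucleotides. The Kcnq1ot1 region lay inside the transcript, downstream of its annotated start, whereas the Gas5 region ended just before the 5′-most TSS of the basic Gas5 transcripts. The Gas5 gene record begins upstream of that TSS, so the region also ran into the annotated gene.

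The libraries of a group differed widely. They held 22705175 to 65734178 fragments, and the peak lists numbered 78851, 39674, 35638 and 235591. The young EC-K4KO 2 library thus had the fewest fragments and the longest list. The smallest pileup at which a peak was called was 13, 8, 9 and 7 fragments in that order. The targeted gene Klf4 held 1, 0, 0 and 3 gene body peaks and 0, 0, 1 and 1 promoter peaks in these libraries. Promoter peaks lay at 8.52% and 49.6% of all annotated genes in young EC-K4KO 1 and 2. Called peaks cannot show whether Klf4 was deleted, since old WT Cre 2, where it was not targeted, had none at Klf4. Which Klf4 exons are deleted is not given in the sources used here, and groups are named by their labels throughout. Of 10 endothelial markers, 5, 5, 0 and 6 had a promoter peak: Kdr, Flt1, Cdh5 and Abcb1a in both old WT Cre libraries, Cldn5 in young EC-K4KO 2 alone, and Pecam1, Tek and Ly6c1 in none. Promoter peaks were also found at 1, 2, 1 and 5 of 6 neuron markers, 2, 1, 0 and 3 of 5 astrocyte markers, 0, 1, 1 and 4 of 5 oligodendrocyte markers, 2, 0, 0 and 4 of 5 microglia markers, 2, 0, 1 and 3 of 5 pericyte markers, and 0, 0, 1 and 2 of 3 red cell markers. Over all protein-coding genes, 25.6%, 24.5%, 10.6% and 67.5% had a promoter peak in the same libraries. The part of other cell types in the results was not tested.

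Across the 7 genes, peaks were sparse in 3 libraries and present at every gene in the remaining library. A promoter peak was called at 2 genes in old WT Cre 1 (Gas5 and Kcnq1ot1) and at 3 in old WT Cre 2 (Malat1, Snhg12 and Kcnq1ot1). The young EC-K4KO libraries were at the extremes, with 0 genes in library 1 and all 7 in library 2. Over all annotated genes the same rule called 18.9%, 15.2%, 8.52% and 49.6% in those libraries, and over lncRNA genes 18.0%, 12.5%, 6.42% and 45.4%. The lowest and highest counts among the 7 genes thus fell in the libraries with the lowest and highest share over all genes. Kcnq1ot1 alone had a promoter peak in both old WT Cre libraries, against 6.16% of all genes, and at a q-value of at most 1e-05 or with a window of 500 bp no gene did. None of the 7 had one in both young EC-K4KO libraries, against 6.35% of all genes, nor in all 4 libraries, against 1.41%.

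**Figure D1:**
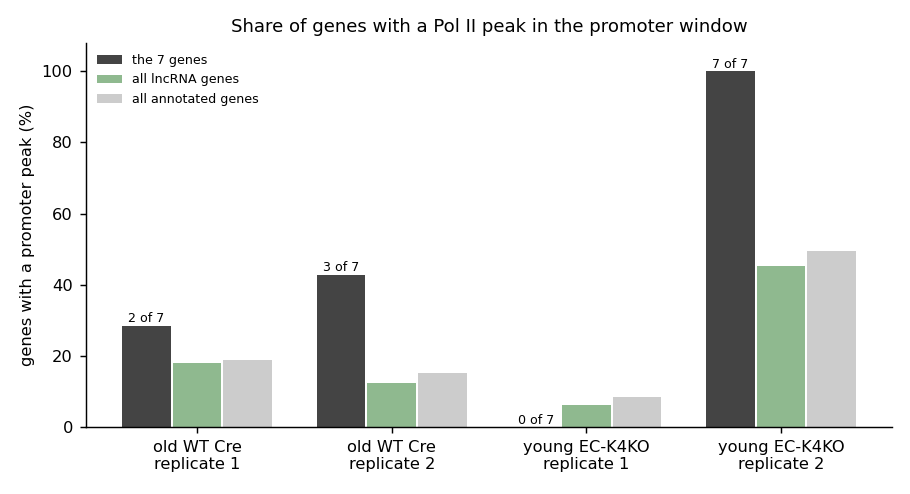
Percent of genes with a Pol II peak within 1500 bp of an annotated TSS (y axis) in each of the 4 libraries (x axis). Bars show the 7 noncoding RNA genes, with counts above them, all 10155 lncRNA genes and all 55450 annotated genes; all 3 shares are lowest in young EC-K4KO 1 and highest in young EC-K4KO 2.

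When the gene body was added to the promoter window, 3, 3, 1 and 7 of the genes had a peak in the 4 libraries. The shares of all annotated genes were 35.9%, 26.9%, 20.2% and 62.0%. Kcnq1ot1, the longest of the 7 at 93.1 kb, was the only gene with a peak in all 4 libraries, which 10.4% of all genes had. In total 38 peaks lay at the 7 genes (6, 6, 1 and 25 by library), and 20 of them lay at Kcnq1ot1. Of the 38, 35 touched a gene body, 14 touched a promoter window and 12 (31.6%) overlapped a peak of another library, against 25% of all 389754 peaks. Merging overlapping peaks left 31 regions, of which 26 were marked in 1 library, 4 in 2 libraries and 1 in 3 libraries. All 5 shared regions included young EC-K4KO 2. Without it, 2 of 13 peaks overlapped another (15.4%, against 22.5% of all peaks), and 1 of 12 regions was shared, at Kcnq1ot1 between the old WT Cre libraries. Without young EC-K4KO 2, Neat1 and Snhg1 had no peak in any library.

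The tallest summit pileup at a gene, is given in fragments per 1000000 fragments of its library (FPM). The fragment totals include those under the tallest peak of each library, which took 14.6%, 15.3%, 3.36% and 1.73% of them, more in the old WT Cre libraries. Without those fragments the Malat1 difference changed sign, and no other gene did. Both young EC-K4KO libraries stood above both old WT Cre libraries at none of the 7 genes, against 12.3% of the 37946 genes with a peak in any library, and the reverse order also held at none, against 1.14%. No difference between the group means of any of the 7 genes exceeded the spread between replicates. The exact permutation test of 2 against 2 libraries (two-sided) gave p = 1.0000 for every gene, for the tallest pileup and for the covered share alike, and could not have given less than 0.3333.

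**Figure D2:**
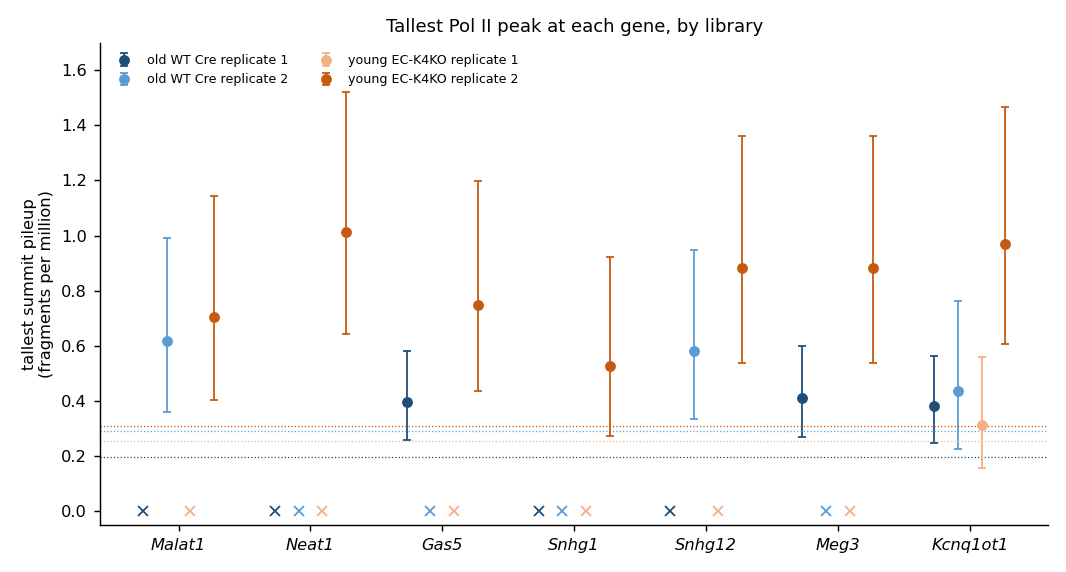
Tallest summit pileup in the promoter window or gene body, in FPM (y axis), at each of the 7 genes (x axis) in 4 libraries. Points carry 95% Poisson intervals of the fragment count, crosses at 0 mark genes with no called peak, and dotted lines mark the smallest called pileup of each library, 0.198 to 0.308 FPM; the points of young EC-K4KO 2 are the highest at every gene.

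Malat1 (ENSMUSG00000092341.3, chr19:5795690-5802672, minus strand, 6.98 kb) had peaks at opposite ends in the 2 libraries that marked it. In old WT Cre 2 a peak of 17 fragments (0.619 FPM, 95% Poisson interval 0.361 to 0.991) had its summit 745 bp upstream of the start, outside the transcript. In young EC-K4KO 2 a peak of 16 fragments (0.705 FPM, interval 0.403 to 1.14) had its summit 6173 bp into the gene, near its 3′ end, and counted as a promoter peak because an internal TSS lay 453 bp away. Old WT Cre 1 and young EC-K4KO 1 had no peak. Thus no peak lay on the 5′ part of the Malat1 transcript in any library, and the share of the gene body under peaks was 0%, 0%, 0% and 2.72%. The group means of the tallest pileup were 0.31 ± 0.438 (SD, n = 2) in old WT Cre and 0.352 ± 0.498 (SD, n = 2) in young EC-K4KO.

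Neat1 (ENSMUSG00000092274.3, chr19:5824708-5845478, minus strand, 20.8 kb) lies on the same stretch of the chromosome as Malat1 and was marked in young EC-K4KO 2 alone. Its 4 peaks had summits 576, 5565, 8462 and 17784 bp downstream of the 5′-most start, with pileups of 14, 20, 18 and 23 fragments, all of them within the transcript. The tallest reached 1.01 FPM (interval 0.642 to 1.52), and 4.83% of the gene body was under peaks, against 2.01% of the genome of that library. The other 3 libraries had none, so every value of Neat1 rests on the library with the longest list. The 5′ peak had a fold enrichment of 2.91, the lowest of the 38 peaks. That peak also lay in the promoter windows of Frmd8os, Gm27505, Gm27533 and Gm28006 and overlapped Gm28006, so it cannot be assigned to Neat1 alone. Of 7 genes for paraspeckle proteins, which bind NEAT1, 2, 4, 2 and 7 had a promoter peak in the 4 libraries, and none had one in all 4.

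Of the 3 snoRNA host genes, Gas5 and Snhg12 each had a peak at the start in 1 old WT Cre library and in young EC-K4KO 2, and Snhg1 had a peak only upstream in the latter. Gas5 (ENSMUSG00000053332.13, chr1:161034422-161038539, plus strand, 4.12 kb) holds 10 annotated snoRNA genes. Its peak had 26 fragments in old WT Cre 1 (0.396 FPM, interval 0.258 to 0.580) and 17 in young EC-K4KO 2 (0.749 FPM, interval 0.436 to 1.20), with summits 150 and 37 bp upstream of the 5′-most TSS of the basic transcripts but inside the longer gene record, by which the gene body was measured. The peaks covered 4.47% and 12.8% of the gene body in these libraries, and the others had no peak. Zbtb37, a protein-coding gene on the opposite strand, starts 80 bp from Gas5 and both peaks overlapped it. ChIP-seq does not mark strand, so the polymerase at this shared start cannot be assigned to either gene. The fold enrichment of 7.18 in young EC-K4KO 2 was the highest of the 38 peaks.

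Snhg12 (ENSMUSG00000086290.9, chr4:132308623-132311024, plus strand, 2.40 kb) holds 5 annotated snoRNA genes. A peak of 16 fragments in old WT Cre 2 (0.583 FPM, interval 0.333 to 0.946) and of 20 fragments in young EC-K4KO 2 (0.881 FPM, interval 0.538 to 1.36) had summits 87 and 176 bp downstream of the start, inside the gene. The covered share of the body was 0%, 7.83%, 0% and 7.95%, so the group means were nearly equal, at 3.91 ± 5.53% (SD, n = 2) in old WT Cre and 3.98 ± 5.62% (SD, n = 2) in young EC-K4KO. Within each group, 1 library had the peak and the other did not. The nearest protein-coding start, that of Rab42, lay 5292 bp away, so neither peak overlapped the promoter window of a protein-coding neighbour, although both lay in the windows of the snoRNA genes Snora16a, Snora44 and Snora61 inside Snhg12.

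Snhg1 (ENSMUSG00000108414.1, chr19:8723475-8726443, plus strand, 2.97 kb) holds 8 annotated snoRNA genes. The only peak near it had 12 fragments in young EC-K4KO 2 (0.529 FPM, interval 0.273 to 0.923), with its summit 468 bp upstream of the start. That peak overlapped Slc3a2, an amino acid transporter subunit gene that starts 106 bp from Snhg1 on the opposite strand. The Snhg1 body had no peak in any library. Slc3a2 had 1, 1, 0 and 3 promoter peaks in the 4 libraries.

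A fixed list of 28 other snoRNA host genes, of which 25 were annotated, gave 6, 8, 5 and 22 genes with a promoter peak in the 4 libraries. Both young EC-K4KO libraries marked 5 of them, both old WT Cre libraries 2, and none was marked in all 4. The list includes hosts that code for proteins, such as ribosomal protein genes, which as a class carry promoter peaks more often: 25.6%, 24.5%, 10.6% and 67.5% of protein-coding genes had one. Of 13 annotated genes among 15 other nuclear or abundant lncRNAs, 5, 3, 0 and 10 had a promoter peak.

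The promoters of 6 of the 7 genes, 8 windows in all, were read from the RefSeq table of GRCm38.p6, which takes 250 bases before to 50 after each start. Neat1 was not in the table. Motifs were searched as exact letters on both strands. The cAMP response element (CRE) TGACGTCA, bound by CREB and ATF factors, was present in 2 of the 8 windows, the downstream Gas5 start and the upstream Meg3 start, against 1.79% of 32851 promoters. These windows are shown for that match, which is in capitals. They lie at chr1:161034916-161035215 (plus strand) for Gas5 and chr12:109540746-109541045 (plus strand) for Meg3, and the CRE began 46 and 57 bases before the start.
Gas5 downstream promoter: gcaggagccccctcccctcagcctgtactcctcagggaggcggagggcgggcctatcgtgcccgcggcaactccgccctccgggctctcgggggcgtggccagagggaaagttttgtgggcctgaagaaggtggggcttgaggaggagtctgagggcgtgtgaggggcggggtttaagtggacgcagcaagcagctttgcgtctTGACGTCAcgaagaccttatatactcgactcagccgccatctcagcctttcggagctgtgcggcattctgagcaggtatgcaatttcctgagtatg
Meg3 promoter: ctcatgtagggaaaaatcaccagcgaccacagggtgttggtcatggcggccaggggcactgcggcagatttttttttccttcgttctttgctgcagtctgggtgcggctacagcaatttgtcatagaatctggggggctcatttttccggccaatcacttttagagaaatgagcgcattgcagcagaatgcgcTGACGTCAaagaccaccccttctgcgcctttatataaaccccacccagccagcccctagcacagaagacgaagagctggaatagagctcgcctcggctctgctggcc
The young EC-K4KO 2 peak at Gas5 reached from the upstream start into the beginning of the downstream window, and the Meg3 window carried no peak in any library. The SP/KLF box GGGCGG was in 3 of the 8 windows (35.7% of all promoters), the shorter KLF motif CACCC in 4 (57.5%), CCAAT in 2 (37.4%) and TATAAA in 2 (13.6%), while the ETS motif CCGGAAG (8.86%) and the E-box CACGTG (7.15%) were in 0. Transcripts of snoRNA hosts are known to begin with a run of pyrimidines, and at the RefSeq starts this run was 6 bases at Snhg12, 5 at the downstream Gas5 start, 3 at Snhg1 and 0 at the upstream Gas5 start. A match of letters describes the window only.

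**Figure D3:**
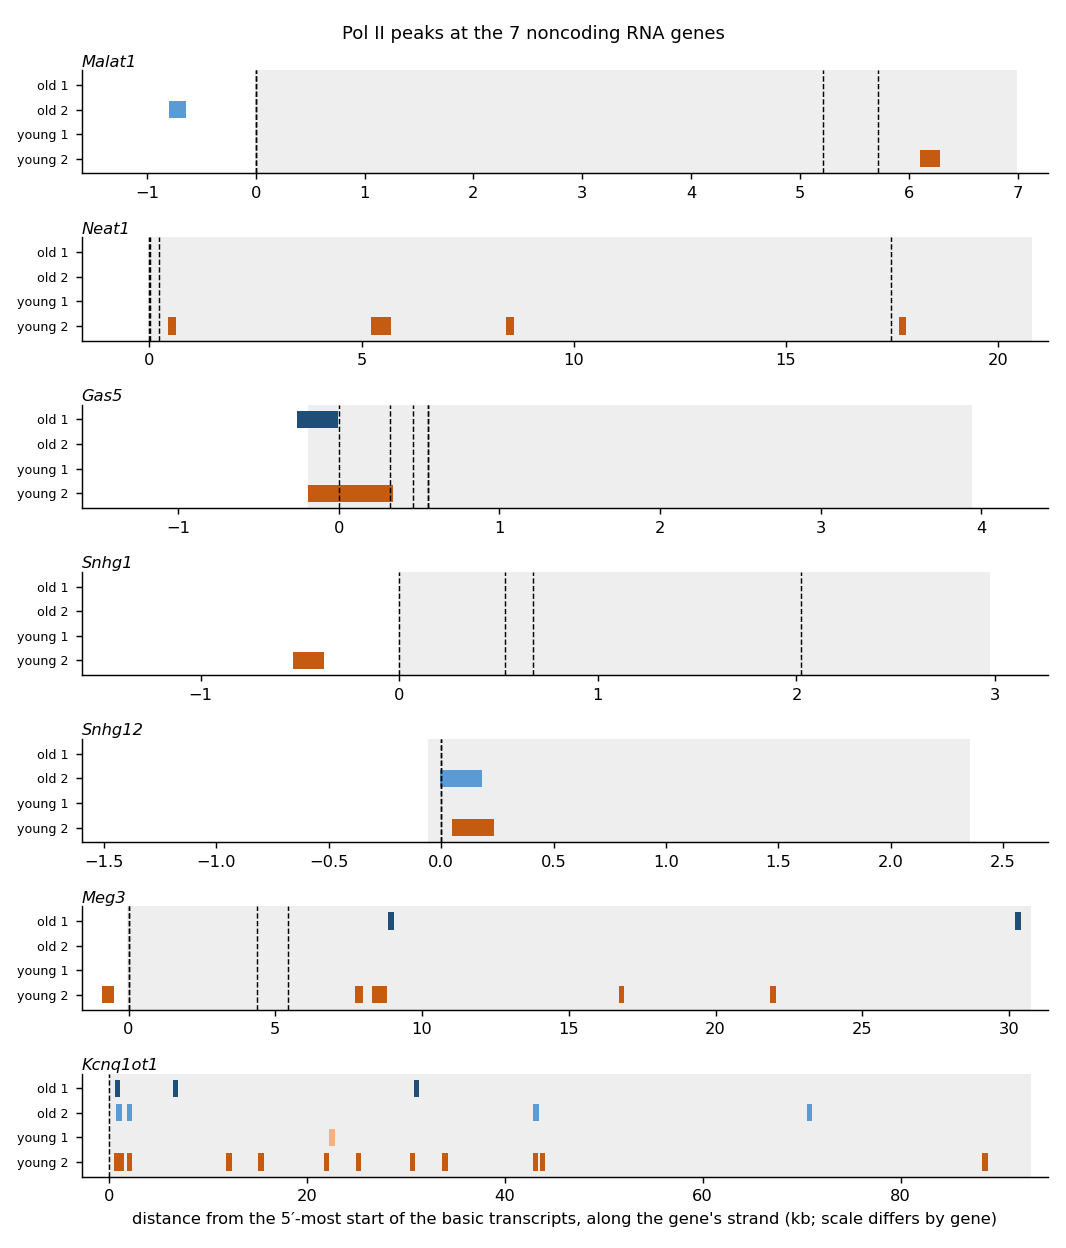
Peaks of each library (rows) at the 7 genes (panels) by distance in kb from the 5′-most start of the basic transcripts (x axis). Grey marks the gene body, dashed lines annotated starts, and bars peaks, widened where they would be too narrow to see; young EC-K4KO 2 has peaks in every panel and the bars of different libraries coincide at Gas5, Snhg12 and Kcnq1ot1.

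Most peaks of the imprinted genes Meg3 and Kcnq1ot1 touched the gene body, as did 35 of the 38 peaks at all listed genes. Promoter windows spanned 18.1% of the Meg3 body and 1.61% of the Kcnq1ot1 body. Meg3 (ENSMUSG00000021268.17, chr12:109541001-109571726, plus strand, 30.7 kb) had 2 peaks in old WT Cre 1, with summits 8965 and 30295 bp downstream of the start and pileups of 27 and 18 fragments. Young EC-K4KO 2 had 5 peaks, 1 with its summit 647 bp upstream of the start and 4 between 7961 and 21917 bp downstream, with pileups of 13 to 20 fragments. The tallest pileup was 0.411 FPM (interval 0.271 to 0.598) in old WT Cre 1 and 0.881 FPM (interval 0.538 to 1.36) in young EC-K4KO 2. No peak lay at Meg3 in the other libraries, and none of its 7 regions was shared between libraries. The covered share of the gene body was 1.31%, 0%, 0% and 3.57%. Of 6 other genes of its imprinted domain, 2, 1, 0 and 6 had a promoter peak.

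Kcnq1ot1 (ENSMUSG00000101609.2, chr7:143203458-143296549, minus strand, 93.1 kb) had 3, 4, 1 and 12 peaks in the 4 libraries. Its tallest pileup was 0.380 FPM (interval 0.246 to 0.561) and 0.437 (0.226 to 0.764) for old WT Cre, and 0.312 (0.156 to 0.559) and 0.969 (0.607 to 1.47) for young EC-K4KO, in order of library number. The old WT Cre values lay between those of the young EC-K4KO libraries, with means of 0.409 ± 0.0401 (SD, n = 2) and 0.641 ± 0.464 (SD, n = 2). Peaks covered 0.778%, 1.0%, 0.179% and 3.10% of the gene, which was 1.01, 2.72, 0.590 and 1.55 times the share of the whole genome covered in the same library. The ratio was highest in old WT Cre 2, although young EC-K4KO 2 had the most peaks at the gene. Flanking stretches of the gene's length had 0.30%, 1.09%, 0.17% and 2.51% covered upstream. Downstream the shares were 0.94%, 0.49%, 0.27% and 3.14%. In every library the higher of the flank shares exceeded that of the gene, so this coverage was not particular to Kcnq1ot1.

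Of the 15 regions of Kcnq1ot1, 3 were marked in 2 or more libraries, 2 of them near its start and the other far inside the gene. A region 583 to 1286 bp downstream of the annotated start was marked in 3 libraries, with summits at 769 bp in old WT Cre 1, 1107 bp in old WT Cre 2, and 782 and 1247 bp in young EC-K4KO 2. The pileups there were 25, 10, 14 and 17 fragments. A second region, 1912 to 2200 bp downstream, and another at 42912 to 43277 bp were each marked by old WT Cre 2 as well as by young EC-K4KO 2. The only peak of young EC-K4KO 1, of 11 fragments, lay 22480 bp downstream and overlapped none of the others. All of Kcnq1ot1 lies within Kcnq1, a potassium channel gene read from the opposite strand, so none of these peaks can be assigned to the noncoding RNA alone. Of 11 genes of the imprinted domain, Kcnq1 included, 2, 3, 2 and 7 had a promoter peak.

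By distance over the 4 libraries in log2 tallest pileup in FPM, the genes most like Kcnq1ot1 were Ankef1 (distance 0.141) and Apip (distance 0.145), among 5484 candidate genes with a peak in every library. Ankef1 had 0.380, 0.437, 0.341 and 1.01 FPM, and Apip 0.365, 0.474, 0.312 and 1.01 FPM. These likenesses rest on 4 libraries.

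The local background behind each peak, taken from its pileup and fold enrichment, differed between the genes in young EC-K4KO 2. There it was 2.33 to 3.21 times the lowest background of the library at Neat1, 2.26 to 2.67 times at Meg3, 2.25 times at Malat1 and 2.12 times at Snhg12. It was 1.16 times at Gas5, 1.04 times at Snhg1 and 1.0 to 2.00 times at Kcnq1ot1. Of 25 peaks at the 7 genes in that library, 17 had a background of at least 1.5 times the lowest, against 34.4% of all its peaks. In the other 3 libraries this ratio was 1.0 to 1.19 at all 13 peaks, and 0 peaks reached 1.5, against 4.05%, 7.80% and 18.2% of all their peaks. A peak is called against this background. In young EC-K4KO 2 the smallest pileup called at a background at or above that of the Neat1 5′ peak was 13 fragments, against 7 fragments in that library as a whole. A gene without a peak was therefore not called at this depth, which does not show that Pol II was absent.

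**Figure D4:**
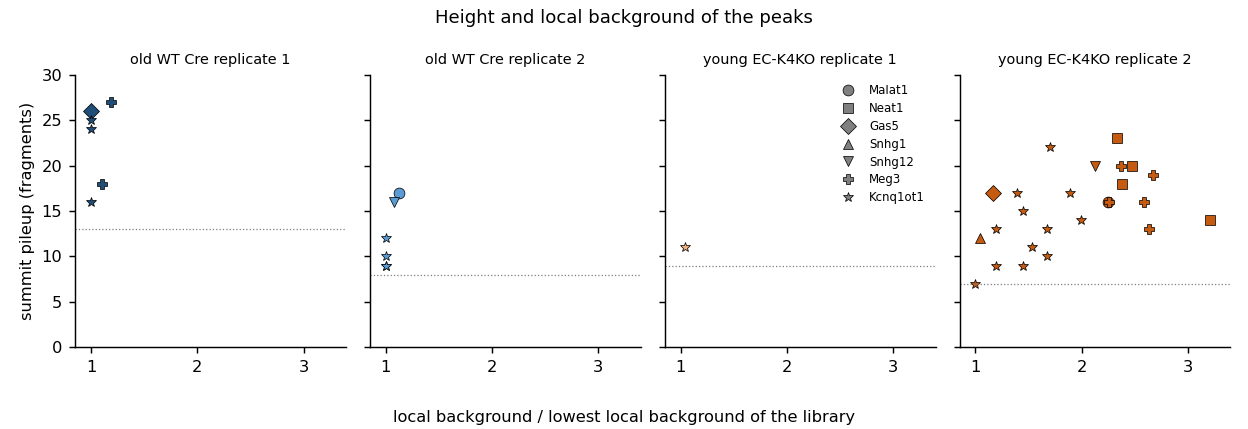
Summit pileup in fragments (y axis) against the local background relative to the lowest of the library (x axis) for the 38 peaks, in 4 panels by library, with a marker for each gene. Dotted lines show the smallest called pileup; peaks of young EC-K4KO 2 extend to a ratio of 3.21, and those of the other libraries stay at or below 1.19.

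Lists of equal length changed the count in young EC-K4KO 2 alone. With each list limited to its 35638 leading peaks, the length of the shortest, 3, 3, 1 and 3 of the 7 genes had a peak, against 21.8%, 25.2%, 20.2% and 27.1% of all genes. Young EC-K4KO 2 then kept Neat1, Gas5 and Kcnq1ot1. At a q-value of at most 1e-05 the counts were 3, 2, 0 and 7, against 25.6%, 16.9%, 8.06% and 52.4% of all genes. At a fold enrichment of at least 4 they were 3, 3, 0 and 7, against 21.3%, 24.2%, 13.7% and 55.8%.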

How the data were processed

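Per the labels and the study's methods, the authors aligned trimmed reads to mm10 with Bowtie2, removed duplicates and called peaks in each library alone with MACS2 (version 2.2.7.1 per the file headers, q-value of at most 0.01, no control). The deposited peak tables give the pileup, a coverage signal in whole fragments, the −log10 p-value and −log10 q-value, and the fold enrichment, a ratio to the larger of the genome background and the background within 10000 bp, with 1 added to both terms. Deposited values were not normalized between libraries. The tallest summits held 393164 to 9576110 fragments at 1 position, so the tables do not bear out complete duplicate removal, and fragments counted in FPM and in the intervals may include copies.

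Peaks were joined to GENCODE M21 basic annotation when at least 1 bp overlapped, in Python 3.11.15 with pandas 2.3.3, and pileups were expressed per 1000000 header fragments (FPM). No peak ran past a chromosome end of GRCm38. A gene without a peak was entered as 0. Intervals are 95% exact Poisson intervals and cover counting error only. Group means (2 libraries each) were compared by a two-sided exact permutation test. Motif windows came from RefSeq promoters, and peak regions from the GRCm38.p6 genome with samtools 1.23.1. The genes, lists and named neighbours were chosen with earlier results of these data known: all 7 genes are named, with their nearest protein-coding genes and the 2 most alike genes. The alternatives were a stricter q-value, a fold of at least 4, lists of equal length, other windows and starts, summits, fragments outside the tallest peak, the gene body alone, a replicate block, and leaving out each replicate. Starts of the comprehensive annotation, the counts per library under stricter lists and the overlap of peaks without young EC-K4KO replicate 2 were added after seeing the data. Counting steps were tested on simulated peaks.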

Additional observations from a re-analysis of the deposited data

How the results depend on the processing

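With 2 libraries per group, no alternative could reach significance. Among 102 results under alternatives that could move them, other than leaving out a replicate, 86 kept their direction or stayed within the set limits, 7 reversed, 6 moved and 3 fell to 0. With lists of equal length, the body share of old WT Cre minus young EC-K4KO was 0.0 at Malat1, 3.91 at Snhg12, 0.332 at Meg3 and 0.228 percentage points at Kcnq1ot1, and the tallest pileup difference was 0.31 at Malat1, 0.0 at Snhg1, 0.291 at Snhg12 and 0.205 FPM at Meg3. It was 0.00697 FPM at Malat1 when fragments under the tallest peak were left out, and 0.0 at Snhg1 with the gene body alone. The promoter count in both old WT Cre libraries was 0 at a q-value of at most 1e-05 and with a 500 bp window, and the count in both young EC-K4KO libraries was 1 with a 3000 bp window. Among differences that kept their sign, the body share moved by over 1.5 times at Neat1 (-2.41 to -0.404, equal length), at Meg3 (-1.13 to -0.221, stricter q-value and fold of at least 4) and at Kcnq1ot1 (-0.753 to -0.484, stricter q-value). The pileup did so at Malat1 (-0.0428 to -0.352 FPM, gene body alone) and Kcnq1ot1 (-0.232 to -0.0758 FPM, fold of at least 4). Leaving out each replicate in turn, the body share difference ranged from -2.72 to 0.0 at Malat1, -4.83 to 0.0 at Neat1, -10.5 to 2.23 at Gas5, -4.04 to 3.91 at Snhg12, -2.92 to 0.656 at Meg3 and -2.22 to 0.71 at Kcnq1ot1. The pileup difference ranged from -0.395 to 0.31 at Malat1, -1.01 to 0.0 at Neat1, -0.551 to 0.198 at Gas5, -0.529 to 0.0 at Snhg1, -0.589 to 0.291 at Snhg12, -0.675 to 0.205 at Meg3 and -0.56 to 0.0964 at Kcnq1ot1. The promoter counts, which can only rise or stay when a library is left out, were 2 to 3 in the old WT Cre libraries (1 with both), 0 to 7 in the young EC-K4KO libraries and 0 to 1 in all libraries. Without young EC-K4KO replicate 2, the sign turned at Gas5, Snhg12, Meg3, Kcnq1ot1 and, for the pileup, Malat1. It also turned without old WT Cre replicate 1 at Snhg12 (3.85 percentage points and 0.142 FPM) and Malat1 (0.267 FPM), and without old WT Cre replicate 2 at Gas5 (0.0212 FPM). The causes were not tested. With the replicate block the differences kept their values (-0.753 percentage points and -0.232 FPM at Kcnq1ot1) with an exact p of 1.0000 and a smallest possible p of 0.5. Deviations of same-numbered libraries correlated at 0.04 over 37946 genes. With 2 libraries per group, this value cannot show whether same-numbered libraries shared a batch. Calling depth, 7 to 13 fragments, limits what an absent peak shows.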
